A study of Mus musculus with 9 samples.

Results

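Aminoacyl-tRNA synthetases are the enzymes that join each amino acid to its tRNA. The 36 genes examined here were listed by name, 20 for the cytosolic enzymes and 16 for the mitochondrial enzymes, whose symbols end in 2. A gene counted as measured when the platform annotation gave a probe set that symbol alone, and its brightest probe set stood for it. This held for 35 of the 36, 19 cytosolic and 16 mitochondrial, out of 18193 genes measured in all, and Dars was not analysed here. Gene expression was measured on Affymetrix arrays in left ventricle from C57BL/6 males that had undergone transaortic constriction (TAC, 4 arrays) or a sham operation (5 arrays) 6 weeks earlier. TAC narrows the aorta so that the ventricle pumps against a raised pressure, and the study used it to induce heart failure. The labels name no genetic change in either group and do not give the age of the mice. They do not tie each array to an animal of its own, and the p-values therefore reflect only how far these samples spread, some of which may be technical.

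Protein synthesis runs separately in the cytosol and in mitochondria. The cytosolic enzymes load the tRNAs that read nuclear messages, and several of them sit together in the multi-synthetase complex with the scaffold proteins Aimp1, Aimp2 and Eef1e1. The mitochondrial enzymes are also encoded in the nucleus and are imported to load the tRNAs that read the few messages of the mitochondrial genome. These messages are for parts of the respiratory chain and of ATP synthase. Gars and Kars each give rise to both a cytosolic and a mitochondrial form. Uncharged tRNA activates the kinase GCN2, which leads to more of the transcription factor ATF4, and ATF4 is known to act on many genes of cytosolic synthetases.

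The cytosolic and the mitochondrial synthetase genes had median differences of opposite sign after TAC. Of the 19 measured cytosolic genes 6 rose and 2 fell, and of the 16 mitochondrial genes 0 rose and 4 fell, at a limma adjusted p below 0.05 over all genes. The differences were small, with at most 1.34-fold among genes that rose (Nars) and at most 1.44-fold lower among those that fell (Cars2). The median difference, TAC minus sham on the log2 scale, was 0.20 over the cytosolic genes and -0.26 over the mitochondrial genes, against -0.0038 over all genes. Among the measured genes 14 of 19 cytosolic differences were positive and 16 of 16 mitochondrial differences were negative, the mitochondrial one nearest to 0 being -0.0040 for Rars2. Over all genes 25.1% were called, 12.8% higher and 12.3% lower. Of the cytosolic genes 31.6% were called higher, and of the mitochondrial genes 25% were called lower. Up to a mean level of 13, brighter genes were called more often. Of all genes with a mean level between 9 and 11, where 14 of the members lay, 17.2% were called higher and 20.4% lower. In both directions, 12 of the 35 members were called, or 34.3%, near the 37.5% of all genes in that range. The called share of all genes was 33.3% between 7 and 9 (9 members), 37.9% between 11 and 13 (9 members) and 11.2% below 7 (3 members). The gap between the classes was given no test, because the members were listed with earlier results of these data known.

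All arrays had the same minimum (2.2511), median (6.5661) and maximum (14.799). The deposited values were thus already on a common scale, so a general change in RNA content is not visible. Pairs of TAC arrays correlated across genes at 0.995 to 0.997, pairs of sham arrays at 0.987 to 0.997 and pairs from different groups at 0.974 to 0.988. Sham replicate 2 had the lowest mean correlation with the other sham arrays over all genes (0.9902, against 0.9934 to 0.9954 for the others). It also stood apart for the synthetase genes. It was the lowest of the 5 sham arrays in 27 of the 35 members, 16 cytosolic and 11 mitochondrial, against 36.8% of all genes. TAC replicate 4 had the highest value of the 4 TAC arrays in 24 of the 35, against 34.9% of all genes. Without sham replicate 2 the cytosolic counts were again 6 higher and 2 lower, while 8 mitochondrial genes were lower and 0 higher, with 13.1% of all genes higher and 13.9% lower. Markers of heart muscle cells were near the top of the scale, with mean levels of the 8 genes of 14.05 to 14.10 in TAC arrays and 14.14 to 14.21 in sham arrays. Of these 0 were called higher and 1 lower. Beside this and the other marker counts stand the shares of all genes, 12.8% higher and 12.3% lower. Of 7 fibroblast markers 6 were called higher, with mean levels of 11.96 to 12.25 in TAC arrays and 10.85 to 11.26 in sham arrays, and of 6 macrophage markers 4 were called higher, with mean levels of 9.72 to 9.86 in TAC arrays and 9.13 to 9.50 in sham arrays. Of 5 endothelial markers 1 was lower (mean levels of 10.19 to 10.37 in TAC arrays and 10.19 to 10.49 in sham arrays), and of 4 smooth muscle markers 1 was higher and 2 lower (8.94 to 9.29 and 8.93 to 9.35). Of 4 atrial markers only Nppa and Myl4 were higher (mean levels of the 4 of 7.98 to 8.41 and 7.16 to 7.79). Of 3 lymphocyte markers none was called (5.92 to 6.36 and 5.95 to 6.15). The part of these cell types in the synthetase differences was not tested, and in bulk tissue fewer cells of a type and less RNA per cell cannot be told apart.

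**Figure D1:**
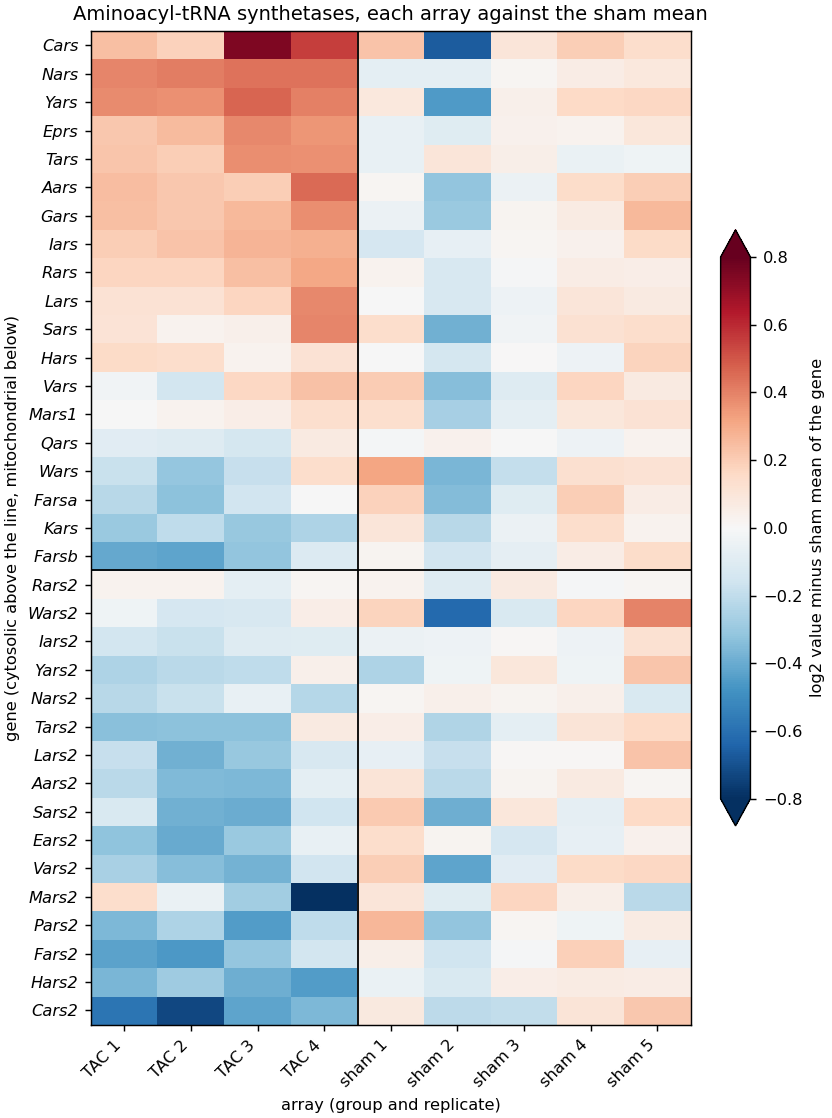
Each row is 1 of the 35 measured synthetase genes and each column an array, and the colour is the log2 value minus the sham mean of the gene (red higher, blue lower). In the 4 TAC columns most of the 19 cytosolic rows are red and most of the 16 mitochondrial rows are blue, and sham replicate 2 is blue in rows of both kinds.

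Nars, which encodes the asparaginyl enzyme, had the clearest increase of the cytosolic genes. Its log2 values were 11.46, 11.48, 11.50 and 11.51 in the TAC arrays, against 10.995, 10.991, 11.09, 11.13 and 11.16 in the sham arrays. All TAC values lay above all sham values, and the difference was 0.42 (SE 0.06, adjusted p = 0.000688 in limma). A second probe set of Nars, at a mean level of 10.85, was higher by 0.62 (adjusted p over all probe sets = 9.11e-05). Yars, for tyrosine, had 9.41, 9.40, 9.50 and 9.44 in the TAC arrays, against 9.12, 8.58, 9.08, 9.19 and 9.20 in the sham arrays. The groups did not overlap, and the sham value of 8.58 was the one far from the rest. The difference of Yars was 0.40 (SE 0.12, adjusted p = 0.0330), or 0.29 without sham replicate 2 (adjusted p = 0.00628). The call of Yars ended without any 1 of the TAC arrays or sham replicate 3, and leaving out TAC replicate 3 gave the highest adjusted p, 0.0900.

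Tars, for threonine, had 10.03, 10.00, 10.17 and 10.17 in the TAC arrays, against 9.74, 9.90, 9.85, 9.75 and 9.77 in the sham arrays. The groups did not overlap, and sham replicate 2 was the highest sham array. Its difference was 0.29 (SE 0.07, adjusted p = 0.0106), and with arrays centred on their medians it was 0.24 and did not pass (adjusted p = 0.0571). Among the genes that did not pass, Cars, for cysteine, differed most, by 0.43 with a 95% confidence interval of 0.01 to 0.86 (adjusted p = 0.134). Its values were 7.29, 7.23, 7.80 and 7.60 in the TAC arrays, against 7.28, 6.38, 7.15, 7.25 and 7.19 in the sham arrays. The groups overlapped, and without sham replicate 2 the difference of Cars was 0.26. Aars, for alanine, differed by 0.28 (adjusted p = 0.0874) and Gars, for glycine, by 0.27 (adjusted p = 0.0770), both overlapping between the groups. Sars, Hars and Vars differed by 0.14, 0.11 and 0.056, and none of the 3 passed (adjusted p = 0.321 to 0.798). The difference of Vars was -0.030 without sham replicate 2 and -0.0043 without TAC replicate 4.

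Of the 7 measured synthetase genes of the multi-synthetase complex 3 rose and 1 fell, against 12.8% higher and 12.3% lower over all genes. At a mean level between 11 and 13, where the median of the 7 lay, these shares were 17.4% and 20.5%. The 1 that fell, Kars, kept its call in 1 of 9 omissions of an array. Eprs, whose product loads both glutamate and proline, had 10.52, 10.55, 10.69 and 10.65 in the TAC arrays, against 10.24, 10.20, 10.34, 10.33 and 10.39 in the sham arrays. The groups did not overlap, and the difference was 0.30 (SE 0.07, adjusted p = 0.00831). Its 3 other probe sets differed by 0.15, 0.22 and 0.053 and did not pass over all probe sets (adjusted p = 0.0781 to 0.724), and the mean of the 4 did not pass either (0.18, adjusted p = 0.0613).

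Iars, for isoleucine, had 11.42, 11.46, 11.50 and 11.51 in the TAC arrays, against 11.09, 11.16, 11.24, 11.26 and 11.38 in the sham arrays. Rars, for arginine, had 10.49, 10.50, 10.57 and 10.63 in the TAC arrays, against 10.35, 10.19, 10.31, 10.39 and 10.38 in the sham arrays. In both genes every TAC value was above every sham value. The difference was 0.25 for Iars (SE 0.07, adjusted p = 0.0264), whose second probe set also rose (0.27), and 0.22 for Rars (SE 0.07, adjusted p = 0.0299). The call of Iars ended without TAC replicate 2, 3 or 4 or sham replicate 1 or 3 (adjusted p up to 0.0721), and that of Rars without any 1 of the TAC arrays or sham replicate 3 (up to 0.0778). Centring on array medians also ended both, with 0.19 for Iars (adjusted p = 0.0655) and 0.17 for Rars (adjusted p = 0.0586). Lars, for leucine, also showed no overlap but did not pass (0.20, adjusted p = 0.0972), and Mars1, for methionine (0.053), and Qars, for glutamine (-0.066), did not pass (adjusted p = 0.731 and 0.503). For Mars1 the difference was -0.014 without sham replicate 2.

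Kars, which gives both the cytosolic and the mitochondrial lysyl enzyme, was lower. Its values were 10.50, 10.60, 10.49 and 10.56 in the TAC arrays, against 10.90, 10.58, 10.76, 10.94 and 10.83 in the sham arrays. Only the lowest sham value, of sham replicate 2, fell within the TAC range. The difference was -0.26 (SE 0.08, adjusted p = 0.0357), and the call held without sham replicate 2 (-0.32, adjusted p = 0.00538). It ended when any 1 of the other 8 arrays was omitted, the highest adjusted p being 0.0957 (TAC replicate 3 omitted).

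The other cytosolic gene that fell was Farsb, which encodes the beta subunit of the phenylalanyl enzyme. It had 10.96, 10.95, 11.06 and 11.26 in the TAC arrays, against 11.39, 11.22, 11.30, 11.43 and 11.52 in the sham arrays. The TAC array at 11.26 overlapped the lowest sham array. The difference was -0.31 (SE 0.09, adjusted p = 0.0242). Its 3 other probe sets differed by -0.18, -0.23 and -0.14 without passing over all probe sets (adjusted p = 0.0701 to 0.461). The call ended without TAC replicate 1, 2 or 3 or sham replicate 4 (adjusted p up to 0.0755), and with the mean of the 4 probe sets (-0.22, adjusted p = 0.0621). Farsa, for the alpha subunit, showed a difference of -0.18 (adjusted p = 0.325, not passed). Wars, for tryptophan, a gene known to be induced by interferon gamma, also failed to pass (-0.13, adjusted p = 0.560), and its 4 probe sets ranged from -0.13 to 0.20.

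**Figure D2:**
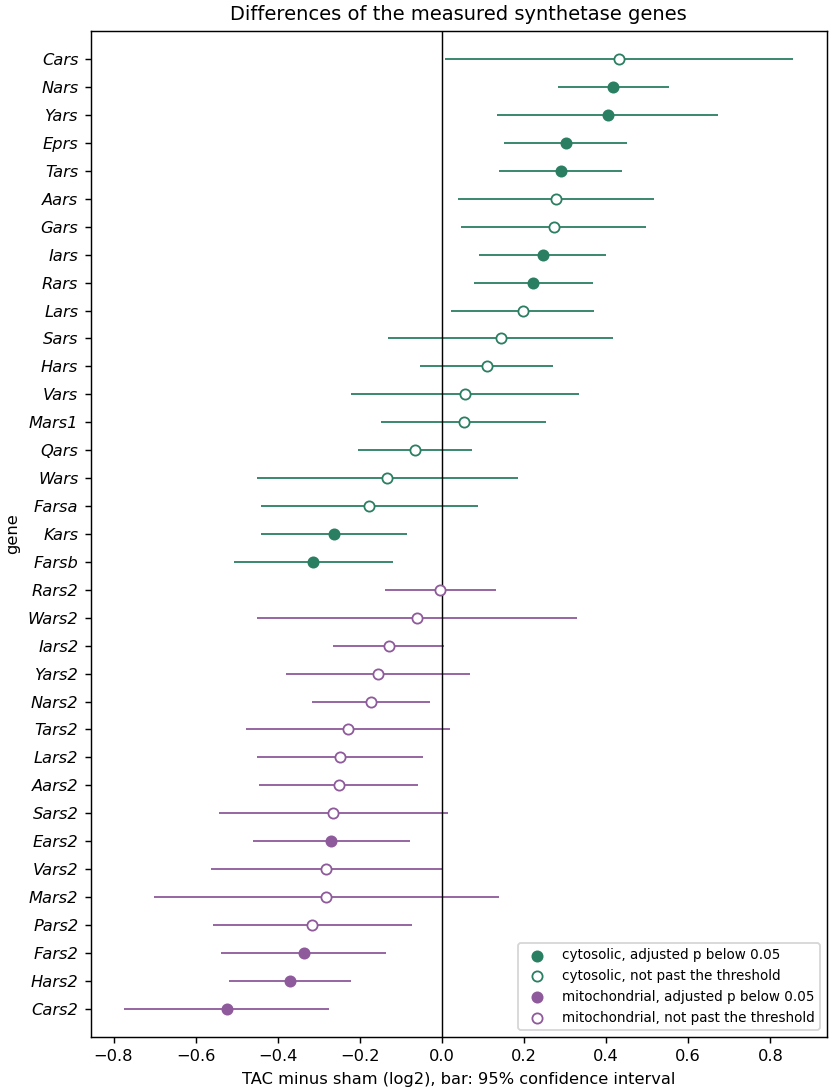
Points are TAC minus sham differences of the 35 genes on the log2 scale with their 95% confidence intervals from limma, and filled points passed an adjusted p of 0.05. The 19 cytosolic genes run from 0.43 (Cars) to -0.31 (Farsb) and the 16 mitochondrial genes from -0.0040 (Rars2) to -0.52 (Cars2).

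Of the mitochondrial genes, Cars2, for cysteine, fell the most. Its values were 8.88, 8.74, 9.04 and 9.11 in the TAC arrays, against 9.55, 9.26, 9.27, 9.57 and 9.69 in the sham arrays. The groups did not overlap, and the difference was -0.52 (SE 0.11, adjusted p = 0.00650). A dimmer probe set at 7.47 differed by -0.21 and one near the bottom of the scale, at 3.96, by 0.10. Neither passed the threshold over all probe sets (adjusted p = 0.354 and 0.573). The mean of the 3 did not pass over all genes (-0.21, adjusted p = 0.0895). Hars2, for histidine, had 8.22, 8.30, 8.19 and 8.14 in the TAC arrays, against 8.53, 8.46, 8.64, 8.65 and 8.64 in the sham arrays. Again every TAC value was below every sham value, and the difference was -0.37 (SE 0.07, adjusted p = 0.00246), with -0.31 at its other probe set (adjusted p over all probe sets = 0.0946).

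Fars2, which encodes the single-chain phenylalanyl enzyme of mitochondria, had 9.67, 9.64, 9.79 and 9.96 in the TAC arrays, against 10.15, 9.95, 10.09, 10.29 and 10.04 in the sham arrays. The highest TAC and the lowest sham value were nearly equal, and the difference was -0.34 (SE 0.09, adjusted p = 0.0204). The call was lost without TAC replicate 1 or 2 (adjusted p = 0.0642 and 0.0659). The other probe set of Fars2, at a mean level of 9.80, differed by -0.20 and did not pass over all probe sets (adjusted p = 0.0755). The mean of both passed (-0.27, adjusted p = 0.0130). Ears2, for glutamate, had 8.67, 8.59, 8.70 and 8.93 in the TAC arrays, against 9.14, 9.01, 8.86, 8.93 and 9.03 in the sham arrays. The groups overlapped at the highest TAC array, and the difference was -0.27 (SE 0.09, adjusted p = 0.0432). When each of the 9 arrays was omitted in turn, this call held in 2 cases (TAC replicate 4 and sham replicate 3), and the highest adjusted p was 0.126 (TAC replicate 2 omitted). The mean of its 4 probe sets was -0.14 and did not pass (adjusted p = 0.189). Its 3 other probe sets, at -0.29, 0.12 and -0.14, did not pass over all probe sets (adjusted p = 0.156 to 0.437). In that fit its brightest probe set did not pass either (limma adjusted p = 0.0638).

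The other 12 mitochondrial genes did not pass. Pars2 (proline, -0.32), Aars2 (alanine, -0.25), Lars2 (leucine, -0.25) and Nars2 (asparagine, -0.17) were nearest to the threshold, with adjusted p = 0.0585 to 0.0797. With all 9 arrays Vars2 differed by -0.28, Sars2 by -0.26 and Tars2 by -0.23 (adjusted p = 0.140 to 0.171). Without sham replicate 2, Pars2, Aars2, Lars2, Vars2 (valine) and Sars2 (serine) passed with differences of -0.39 to -0.29 (adjusted p = 0.00764 to 0.0301), while Ears2 did not (adjusted p = 0.0596). Aars2 also passed without TAC replicate 4 (adjusted p = 0.0301), as did Tars2 (threonine, 0.0353), and Nars2 passed without sham replicate 5 (0.0408). Iars2, for isoleucine, differed by -0.13 with no overlap between the groups but did not pass (adjusted p = 0.157). Mars2, for methionine, had 7.62, 7.42, 7.20 and 6.54 in the TAC arrays, against 7.58, 7.38, 7.65, 7.52 and 7.26 in the sham arrays. Its difference of -0.28 rested on the TAC array at 6.54 and was -0.063 without it. Yars2 (tyrosine, -0.16), Wars2 (tryptophan, -0.062) and Rars2 (arginine) did not pass either (adjusted p = 0.303 to 0.975).

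TAC and sham values were fully separate for 7 cytosolic genes, all with TAC above, and for 3 mitochondrial genes, all with TAC below. Over all genes 25.2% did not overlap, 13.0% with TAC above and 12.2% with TAC below. For the cytosolic genes this was 36.8% and for the mitochondrial genes 18.8%. The 7 were the 6 genes that rose and Lars, and the 3 were Cars2, Hars2 and Iars2.

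Averaged over genes, the cytosolic set lay 0.076, 0.055, 0.14 and 0.24 above the sham mean in the TAC arrays, and at 0.054, -0.23, -0.023, 0.086 and 0.11 in the sham arrays. The mitochondrial set lay at -0.23, -0.29, -0.28 and -0.18 in the TAC arrays, and at 0.063, -0.19, -0.0042, 0.044 and 0.091 in the sham arrays. Each set alone overlapped between the groups, the cytosolic set because 2 sham arrays reached the levels of the TAC arrays and the mitochondrial set because of sham replicate 2. The gap between the sets within an array was 0.31, 0.35, 0.42 and 0.42 in the TAC arrays, against -0.0084, -0.034, -0.018, 0.042 and 0.019 in the sham arrays. In this measure sham replicate 2 lay close to the other sham arrays, and the groups did not overlap.

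**Figure D3:**
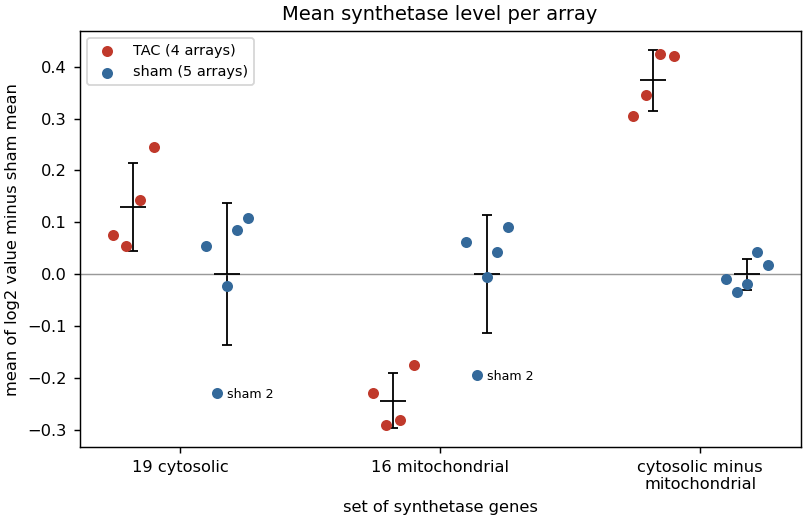
Each point is an array, red for TAC and blue for sham, and shows the mean over 19 cytosolic or 16 mitochondrial synthetase genes of the log2 value minus the sham mean, or the gap between the 2 sets. Bars give the group mean and SD, and the gap runs from 0.31 to 0.42 in the TAC arrays and from -0.034 to 0.042 in the sham arrays.

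For 16 mitochondrial enzymes the cytosolic enzyme for the same amino acid was also measured, with Eprs set against both Ears2 and Pars2 and the alpha subunit gene Farsa against Fars2. In 15 of the 16 pairs the cytosolic difference was above the mitochondrial one, and in 14 the cytosolic gene was positive and the mitochondrial gene negative. The widest pair was cysteine, with 0.43 for Cars and -0.52 for Cars2, followed by proline, with 0.30 for Eprs and -0.32 for Pars2, and asparagine, with 0.42 for Nars and -0.17 for Nars2. The exception was tryptophan, with -0.13 for Wars and -0.062 for Wars2. In 1 pair, Eprs and Ears2, both genes passed the threshold. The differences between the members of a pair were not tested.

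**Figure D4:**
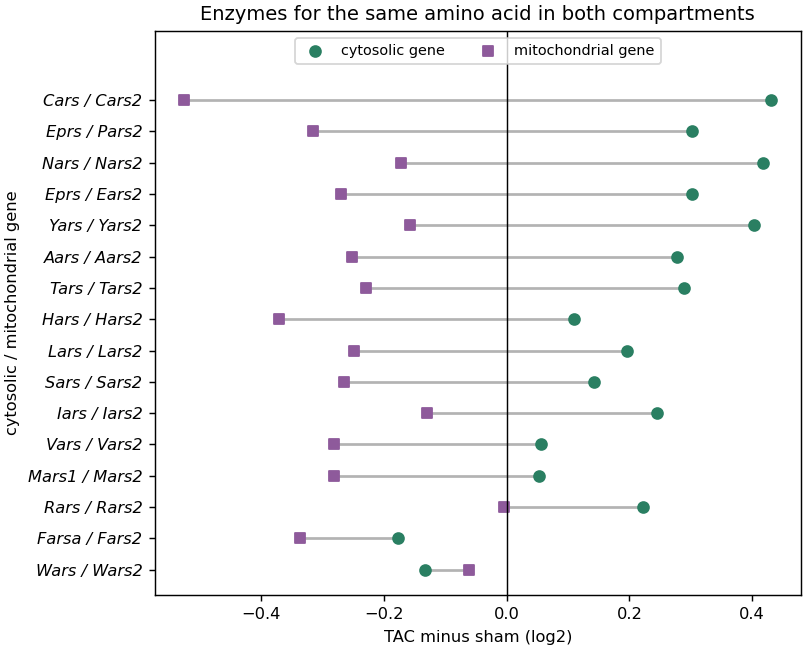
Each row is a cytosolic (circle) and a mitochondrial (square) gene for the same amino acid, placed by the TAC minus sham difference on the log2 scale. The circle lies right of the square in 15 of 16 rows, and the exception is Wars with Wars2.

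Median differences were close between the structural classes of the enzymes. Synthetases fall into class I and class II by the fold of their catalytic core. Among the cytosolic genes the median difference was 0.20 in 9 class I genes and 0.14 in 9 class II genes, with Eprs holding both kinds, and among the mitochondrial genes it was -0.25 in 9 class I genes and -0.26 in 7 class II genes. Members of the multi-synthetase complex had a median of 0.20 (7 genes) and the remaining cytosolic genes 0.21 (12 genes).

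Promoter sequence was compared because several cytosolic genes are known targets of ATF4, which binds with partner proteins to amino acid response elements. RefSeq windows of 300 bases around the start site (250 before, 50 after, GRCm38.p6) were found for 26 of the 35 members, 12 cytosolic and 14 mitochondrial. The core TGATGNAA, searched on both strands, was present in 5 of the 12 cytosolic genes (Aars, Gars, Iars, Tars and Yars) and 0 of the 14 mitochondrial genes, against 4.51% of 27025 genes. The 5 genes with the core had positive differences of 0.25 to 0.40, and 3 of them rose. The 7 cytosolic genes without it in this window had differences of -0.31 to 0.30, of which 1 was called higher and 2 lower. Cars, Hars, Lars, Nars, Rars, Vars and Wars had no window and were not searched, and among them Nars and Rars rose. The motifs were chosen after the values were seen, so these counts are no test of a link between motif and difference. The E-box CACGTG, a palindrome bound by Myc among other factors, was present in 4 of 12 cytosolic genes (Aars, Farsb, Iars and Tars) and in 1 of 14 mitochondrial genes (Ears2), against 8.09% of all genes. These motifs do not overlap each other in the members. The motif of NRF1, a factor of many nuclear genes for mitochondria, written as GCGCAT followed at once by GCGC, was present in 0 of the 26 members and in 1.07% of all genes. The median GC content was 56.3% in the cytosolic and 58.2% in the mitochondrial windows, against 52.8% over all genes. A match is a description of letters and not a sign of binding.

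The matches to the response core are shown to compare their context. Each sequence is on the strand of its gene, 5′ to 3′, and capitals mark the core (its reverse complement where it lies on the opposite strand) and, in Aars, an E-box ahead of it. Positions of the first base of the core are counted from 0 at the annotated start, negative before it, and longer stretches are given for cores that lie before the start.
Aars, core at -112, chr8:111033670-111033767, plus strand: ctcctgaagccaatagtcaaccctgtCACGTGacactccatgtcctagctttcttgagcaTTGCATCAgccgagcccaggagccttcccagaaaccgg
Aars, core at 9, chr8:111033840-111033869, plus strand: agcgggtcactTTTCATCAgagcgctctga
Gars, core at -30, chr6:55037911-55038000, plus strand: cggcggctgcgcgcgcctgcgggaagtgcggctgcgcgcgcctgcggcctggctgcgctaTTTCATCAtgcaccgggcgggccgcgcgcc
Iars, core at 7, chr13:49682126-49682155, plus strand: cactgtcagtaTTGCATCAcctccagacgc
Tars, core at -15, chr15:11399659-11399733, minus strand: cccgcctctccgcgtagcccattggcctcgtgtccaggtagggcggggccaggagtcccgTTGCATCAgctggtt
Yars, core at 3, chr4:129189895-129189924, plus strand: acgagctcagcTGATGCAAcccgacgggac

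Of 21 measured genes of ATF4 and the integrated stress response 8 rose, 1 fell and 12 did not pass, against 12.8% of all genes higher and 12.3% lower. At a mean level between 7 and 9, near the mean of this list, 18% of all genes were higher and 15.3% lower. The median difference of the 21 was 0.36. Without sham replicate 2 the counts were 11 higher and 1 lower, with 13.1% of all genes higher and 13.9% lower. Atf4, named here after its values were seen, averaged 12.11 ± 0.23 in TAC and 11.50 ± 0.18 in sham arrays (SD, n = 4 and 5), a difference of 0.61 (adjusted p = 0.00464 in limma). Nupr1, a stress-induced regulator, rose by 2.14 (SE 0.15), the mitochondrial folate enzyme gene Mthfd2 by 1.32 (SE 0.21), the leucine transporter gene Slc7a5 by 1.13 (SE 0.21) and the translation repressor gene Eif4ebp1 by 0.63 (SE 0.08). The member that fell was the arginine transporter gene Slc7a1 (-0.44, adjusted p = 0.00377), named after its values were seen. Asns, the asparagine synthetase gene and a well-known ATF4 target, also named after its values were seen, had a difference of 0.57 that did not pass (adjusted p = 0.0620). Without sham replicate 2 Asns passed (limma adjusted p = 0.0381). The macrophage and fibroblast markers given above were higher in the same arrays, and their part in these differences was not tested.

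Among the scaffold genes of the multi-synthetase complex Eef1e1 rose by 0.41 (SE 0.09, adjusted p = 0.00697), with all TAC above all sham values, while Aimp1 (0.11) and Aimp2 (0.13) did not pass (adjusted p = 0.229 and 0.284) and are named, after their values were seen, to complete the 3. Of 8 genes for editing of mischarged tRNA, tRNA export and selenocysteine 1 fell and 0 rose, against 12.3% of all genes lower and 12.8% higher. This was Aarsd1, which encodes a protein that clears wrongly charged alanine tRNA, with a difference of -0.62 (SE 0.08, adjusted p = 0.000411). Of 12 genes for the synthesis and handling of cytosolic tRNA 2 rose and 2 fell, against the same shares of all genes. The mean of this list lay near 9. At levels of 7 to 9, 18% of all genes were higher and 15.3% lower, and at 9 to 11, 17.2% and 20.4%. The RNA polymerase III subunit gene Polr3g rose by 0.84 (SE 0.10) and the tRNA methylase gene Nsun2 by 0.28, while Gtf3c1, a subunit of the polymerase III factor TFIIIC, fell by 0.35 and the polymerase III repressor gene Maf1 by 0.28.

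Of 12 measured mitochondrial translation factor genes 8 fell, 0 rose and 4 did not pass, against 12.3% of all genes lower and 12.8% higher. At a mean level between 9 and 11, where the mean of this list lay, 20.4% of all genes were lower and 17.2% higher. Their median difference was -0.29. Without sham replicate 2 the counts were 9 lower and 0 higher, with 13.9% of all genes lower and 13.1% higher. Mitochondria make glutaminyl-tRNA by an amidotransferase of 3 subunits in place of a synthetase, and all 3 of its genes fell: Gatb by 0.55 (adjusted p = 0.00517), Qrsl1 by 0.42 (adjusted p = 0.00384) and Gatc by 0.39 (adjusted p = 0.0125), the last named after its values were seen. Values of Gatb overlapped between the groups and those of Qrsl1 and Gatc did not. The elongation factor gene Tufm fell by 0.33 (SE 0.08) and the release factor gene Mtrf1l by 0.35 (SE 0.07). Of 12 genes for processing and modification of mitochondrial tRNA 3 fell, 2 rose and 7 did not pass, against 12.3% of all genes lower and 12.8% higher. The mean of these 12 also lay between 9 and 11, where the shares were 20.4% lower and 17.2% higher. Their median was -0.16. Trmt5, a tRNA methylase, fell by 0.88 (SE 0.08), Hsd17b10, a subunit of mitochondrial RNase P, by 0.54 and Mto1, for modification of the wobble base, by 0.32, whereas Trit1 and Trnt1, for a base modification and for the CCA end of tRNAs, rose by 0.20 and 0.24, Trnt1 being named after its values were seen.

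**Figure D5:**
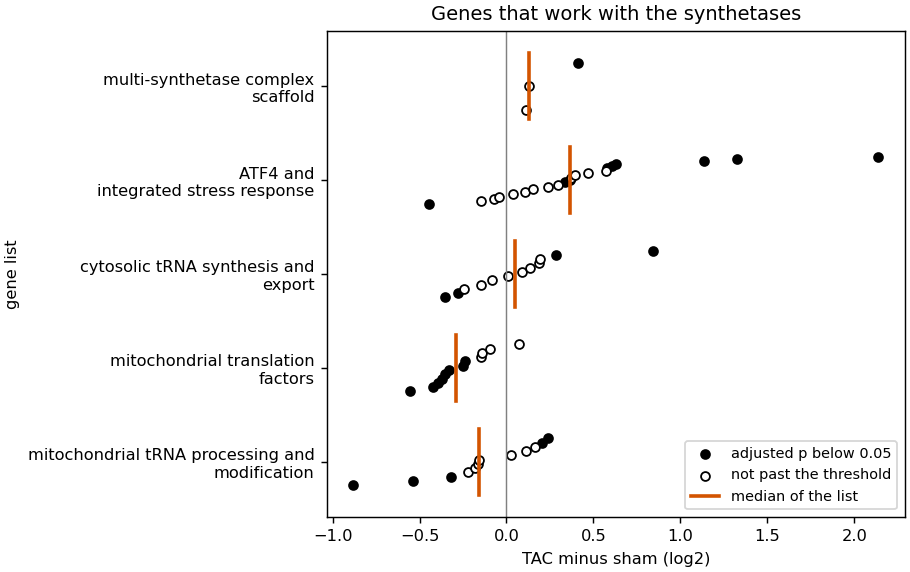
Points are the TAC minus sham differences (log2) of single genes in 5 lists of genes that work with the synthetases, filled where the adjusted p was below 0.05, and orange bars are list medians. The median is 0.36 for the ATF4 list of 21 genes and -0.29 for the 12 mitochondrial translation factor genes.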

How the data were processed

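The deposited table held log2 values per probe set. The submitters' processing notes name RMA, without a version, as what the authors used to make them. RMA corrects background, gives every array the same distribution and summarises probes, so only differences relative to other genes can be seen. Of 45101 probe sets, 34945 had 1 gene symbol, 932 had several and 9160 were not listed, and 64 controls were left out. Detection calls were not used here, and dim genes were kept. The brightest probe set by its mean over all 9 arrays stood for each of 18193 genes. TAC was set against sham in R 4.3.3 by means of limma 3.58.1 (linear fit with empirical Bayes moderation, two-sided, no covariate, Benjamini-Hochberg over all genes, threshold 0.05). Adjusted p-values of other probe sets were taken over 45037 probe sets. The fit was tested on simulated data. Figures were drawn in Python 3.11.15 with matplotlib 3.10.9.

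The members and gene lists were chosen with earlier results of these data known. All measured members are named, and of each other list up to 4 called genes with the smallest p, or the 2 with the smallest p where none was called. Atf4, Asns, Slc7a1, Gatc, Trnt1, Aimp1 and Aimp2 were named outside this rule, after their values were seen. Promoter motifs were chosen after the values were seen. Replicate numbers are only the order of the samples. The number of arrays limits the precision. Some genes have no promoter entry in the RefSeq table and were not analysed for motifs.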

Additional observations from a re-analysis of the deposited data

Results flagged for a closer look

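In 70 groups of values (35 genes in TAC and in sham arrays) 7 held 1 array whose gap to its nearest neighbour was large against the range of the group (Dixon's 95% criterion), and about 1 in 20 groups is marked so by chance. Sham replicate 2 was the low array in 3 of them, with 6.38 for Cars (next 7.15), 8.58 for Yars (next 9.08) and 7.83 for Aars2 (next 8.06). TAC replicate 4 was the high array in Tars2, at 9.52 (next 9.12), and in Yars2, at 10.84 (next 10.59). The others were Nars2 in sham replicate 5, at 8.54 (next 8.68), and Rars2 in TAC replicate 3, at 9.80 (next 9.89).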

How the results depend on the processing

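Alternatives covered the choice of probe sets (their mean per gene, or each other one), a restriction to genes above the median level, array weights, robust fitting with a trend in the variance, cyclic loess, centring on array medians, a threshold of 0.01 and the omission of each array. Choosing the brightest probe set without the ending _x_at, which marks possible cross-hybridisation, was added after seeing the data and changed no call of a member. The medians of both classes kept their sign under all alternatives for which they were computed, with 0.13 to 0.23 for the cytosolic and -0.31 to -0.17 for the mitochondrial genes. The class counts were less stable. Of the 12 called members, Eprs, Nars, Tars, Cars2 and Hars2 kept the call whichever array was left out. Of these 5, Nars and Hars2 kept it under the alternatives that use all arrays as well, except that the single other probe set of Hars2 did not pass, while Eprs and Cars2 lost it with the mean of probe sets and Tars with centring and at an adjusted p below 0.01. Other probe sets were judged over 45037 probe sets and the brightest ones over genes. Over all probe sets the brightest ones of Kars, Rars and Ears2 did not pass in limma (adjusted p = 0.0554, 0.0536 and 0.0638). Those of the other called members passed.

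Cytosolic genes called in all, higher and lower were 8, 6 and 2. They were 5, 3 and 2 with centring and 2, 2 and 0 at an adjusted p below 0.01, and with the mean of probe sets 1 was lower. Centring moved the median of all genes to -0.055, from which the cytosolic median of 0.15 and the mitochondrial median of -0.31 are to be read, and 40.5% of called genes were higher in place of 51.1%. Leaving out 1 array gave 3 to 8 called, 3 to 7 higher and 0 to 2 lower. The counts were 3 called and 3 higher without TAC replicate 2 or 3, 4 and 3 without TAC replicate 4 or sham replicate 3, and 4 called without TAC replicate 1. Mitochondrial genes called, all of them lower, were 4. They were 2 with the mean of probe sets, 7 of 12 with bright genes only, 11 with array weights, 9 with centring and 2 at an adjusted p below 0.01. Leaving out 1 array gave 2 (without TAC replicate 1 or 2) to 8 (without sham replicate 2). Over all genes 4565 were called, 2333 higher and 2232 lower, against 2608, 1356 and 1252 at an adjusted p below 0.01, and leaving out 1 array gave 3375 to 4914, 1770 to 2386 and 1605 to 2528. The count of all genes called lower moved in the other settings too. It was 2089 with the mean of probe sets, 2198 of 9096 with bright genes only, 3045 with array weights and 2907 with centring. With centring 1978 of all genes were higher. The causes were not tested.

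Sign changes on the brightest probe sets or their means were those of genes that were not called. They were Mars1 (-0.0022) and Vars (-0.063) with array weights, Rars2 (0.021) with cyclic loess, and Mars2 (0.027) and Wars2 (0.037) with the mean of probe sets. Leaving out 1 array gave -0.014 to 0.086 for Mars1, -0.030 to 0.12 for Vars, -0.030 to 0.021 for Rars2 and -0.22 to 0.037 for Wars2. Single other probe sets of opposite sign were those of Farsa (0.0048), Qars (0.023), Wars (0.20), Cars2 (0.10), Ears2 (0.12), Iars2 (0.046), Lars2 (0.11), Mars2 (0.34) and Wars2 (0.14), and none of them passed. The labels give no pairing of TAC with sham arrays, and no paired analysis was made. They give no replicate numbers either, so the numbers used here only name the arrays.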

Other observations

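Of 7 measured genes of mTORC1 and Myc 1 rose, against 12.8% of all genes higher. It was Myc itself, a transcription factor that drives growth, with 7.91 ± 0.92 in TAC and 6.69 ± 0.22 in sham arrays (SD, n = 4 and 5, limma adjusted p = 0.0273). Of 6 genes of the eIF2 alpha kinases and their phosphatase none was called in limma, against 25.1% of all genes. Of the 6, 0 had an unadjusted limma p below 0.05, against 6519 of all 18193 genes. The smallest p were those of the heme-regulated kinase gene Eif2ak1 (-0.13, adjusted p = 0.264) and the kinase gene Eif2ak3 (0.11, adjusted p = 0.343), which encodes PERK. Without sham replicate 2, 1 of the 6 was higher, against 13.1% of all genes. Of 9 interferon gamma response genes 1 rose, against 12.8% of all genes. It was the chemokine gene Cxcl10 (1.17, adjusted p = 0.0122), and the median of the 9 was -0.17. Without sham replicate 2, 1 gene of the mTORC1 and Myc list and 1 of the interferon list were also lower, against 13.9% of all genes.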
